A study of Mus musculus with 19 samples.

Results

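The focal adhesion and cytoplasmic actin genes are 10 genes chosen by name: the plaque proteins vinculin (Vcl), talin-1 (Tln1), paxillin (Pxn) and zyxin (Zyx), the actin cross-linkers filamin A (Flna), α-actinin-1 (Actn1) and α-actinin-4 (Actn4), the cytoplasmic actins β-actin (Actb) and γ-actin (Actg1), and the transcription factor serum response factor (Srf). The Ensembl identifiers of the deposited table were matched to mouse gene symbols, and each of the 10 genes had 1 identifier among the 55487 of the table. All 10 passed the filter on low counts and were among the 15138 genes tested. They were chosen with earlier results of these data known, so the shares of them called below do not come from a blind choice.

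Focal adhesions are the sites where a cell grips its matrix: integrins in the membrane bind the matrix outside and, through talin and vinculin, the actin filaments inside. Filamins and α-actinins tie actin filaments into networks and bundles that pull on these sites. SRF, with its cofactors of the MRTF family that sense the pool of free actin, drives many actin and adhesion genes by binding a DNA element called the CArG box. Hepatic stellate cells (HSCs) are the vitamin A-storing pericytes of the liver sinusoids, and when plated on a stiff surface they spread and acquire stress fibres.

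RNASeq was measured in HSCs of untreated Balb/c mice, all male and 23 to 24 weeks old, sorted by the ultraviolet fluorescence of their vitamin A. A fraction was collected fresh (0 h, 2 samples), and the rest was plated on collagen-coated plastic in DMEM with 10% fetal bovine serum for 3, 6, 12, 18 or 96 h (3 samples each) or 24 h (2 samples), with fresh medium at 3 h and 24 h. No genotype or drug was varied, so time and plating cannot be told apart against 0 h. The medium changes at 3 h and 24 h fall within the series, so steps in culture across them hold both time and fresh medium. The labels number the samples M1, M2 and M3 without saying what the number marks, and the column headers give M1 and M3 one isolation date and M2 another. The 0 h samples were M2 and M3 and the 24 h samples M1 and M2. Each sample joins 2 technical repeats that the counts do not separate.

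Each library held between 2073171 and 7690892 counts, and all levels below are library-scaled counts (CPM) adjusted by TMM, a factor that corrects for library composition. A level of 3 counts, the smallest the depth was taken to show, corresponded to 0.390 to 1.45 CPM of the library total. Within a timepoint the correlation of log2 CPM over genes was lowest at 0 h, with r = 0.768 between its 2 samples, against 0.802 to 0.868 at the other timepoints. The 8 stellate markers (such as Lrat, Reln and Colec11) were all present at 0 h, with a summed level of 7068 and 8774 CPM. Their sum was 643 to 827 CPM at 12 h, 409 to 736 CPM at 18 h and 450 and 603 CPM at 24 h. It was between 796 and 957 CPM at 96 h, where Ngfr was at 0. The summed level of 8 hepatocyte markers, led by Alb, was 3159 and 7264 CPM at 0 h and 26.95 to 73.7 CPM at 96 h, that of 11 Kupffer cell and leukocyte markers 432 to 490 CPM and 23.3 to 46.2 CPM, and that of 8 sinusoidal endothelial markers 685 to 1038 CPM and 4.38 to 128 CPM. The endothelial sum was 953 to 3198 CPM at 3 h, reaching above its fresh level, and 175 to 867 CPM at 6 h. Of 7 smooth muscle and portal fibroblast markers the sum was 207.9 and 208.4 CPM at 0 h, 132 to 159 CPM at 3 h and 178 to 251 CPM at 96 h. In between it was lower, with 23.9 to 59.7 CPM at 6 h, 44.0 to 62.2 CPM at 12 h and 32.1 to 54.4 CPM at 18 h. Its members differed: Des, also counted as a stellate marker, averaged 123 CPM at 0 h and 112 CPM at 96 h. Eln averaged 64.6 and 2.70 CPM, Cnn1 0 and 50.1 CPM, and Myh11 16.2 and 35.9 CPM. Of 4 cholangiocyte markers the sum was 5.27 and 14.6 CPM at 0 h, 3.84 to 14.4 CPM at 3 h and at most 6.16 CPM later, and the defining Krt19 and Krt7 were at 0 throughout. These marker levels moved along with the time in culture, and their part in the changes below was not tested. In bulk samples fewer cells of a type and less RNA per cell cannot be told apart.

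Cultured HSCs had more RNA of both cytoplasmic actins, of Actn1 and of Flna from 12 h on, and 6 of the 10 genes were upregulated at 96 h. The Actb calls at 12, 18 and 24 h were lost with DESeq2 size factors, where its log2 fold change was 0.77 to 0.95, under the fold limit. A gene was called where its adjusted p was below 0.1 and its fold change above 2 in edgeR's quasi-likelihood test, with Benjamini-Hochberg adjustment over all genes tested. At 3 h against 0 h only Actg1 was called higher, 1 of 10 genes against 4.19% of all genes. At 6 h it was joined by Actn1 (2 of 10, against 6.98% of all genes). Tln1, Flna, Actn1, Actb and Actg1 were called at 12 h (5 of 10, against 8.6%). Flna, Actn1, Actb and Actg1 were called at 18 h (4 of 10, against 7.64%) and at 24 h (4 of 10, against 5.65%). At 96 h Tln1, Zyx, Flna, Actn1, Actb and Actg1 were called (6 of 10, against 5.83%).

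No gene of the group was called lower at any timepoint against 0 h by edgeR, nor by DESeq2, and at an unadjusted p below 0.05 only Actn4 at 3 h was lower. The exception among the alternatives was Srf at 24 h, called lower when the sample with 0 counts was the only one left at that timepoint (adjusted p = 0.00208, edgeR). Of all genes tested 1.39%, 4.35%, 9.1%, 8.21%, 3.86% and 5.03% were called lower, in order of time. In the same order the 10 genes had median log2 fold changes of 0.87, 0.80, 1.32, 0.83, 0.82 and 1.39, while the median of all genes tested was 0.00 up to 24 h and 0.07 by 96 h. In a test for a difference at any timepoint 7 of the 10 genes passed an adjusted p of 0.1, against 27.4% of all genes. Vcl (adjusted p = 0.345), Pxn (0.945) and Srf (0.551) did not. All 6 comparisons share the same 2 samples at 0 h, so their counts are not independent of each other.

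**Figure D1:**
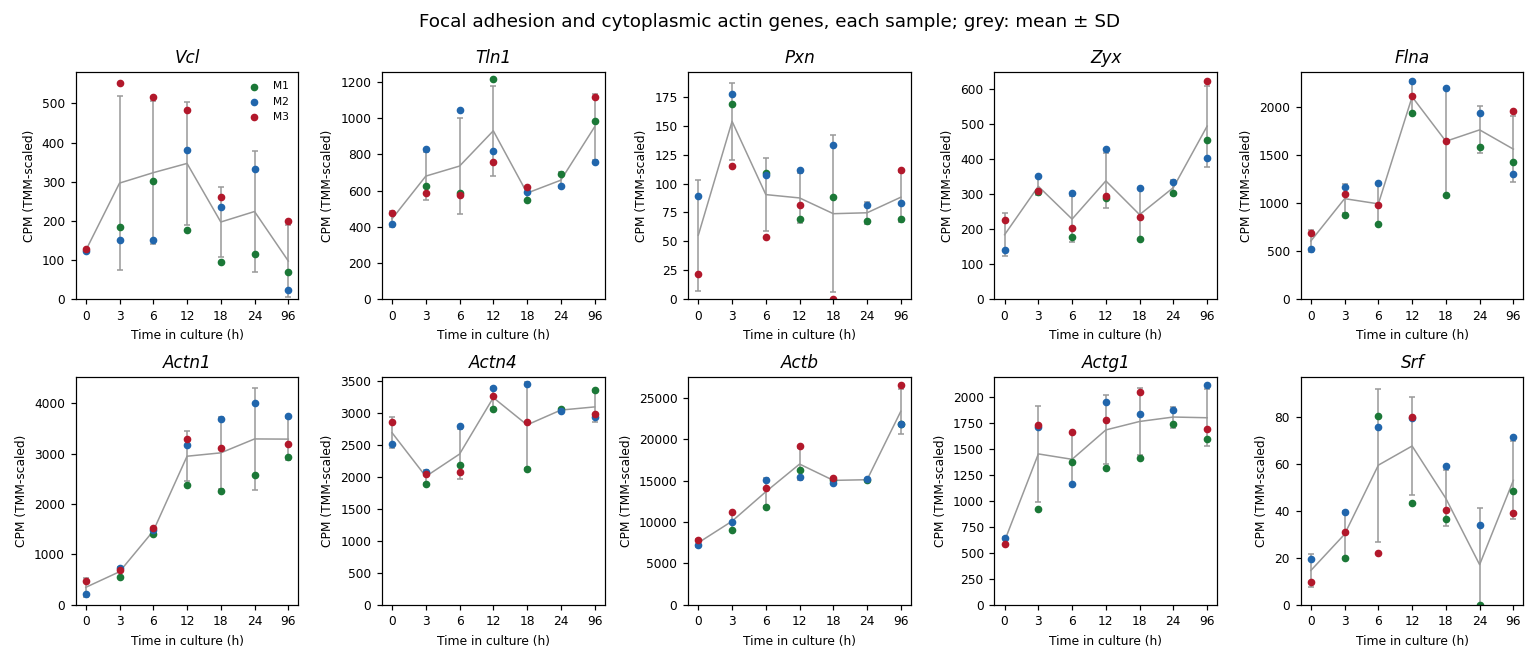
Level of each of the 10 genes in each sample, in TMM-scaled CPM on a linear axis that starts at 0, against the time in culture in hours (evenly spaced, not to scale). Points are samples coloured by their number (M1, M2, M3), and the grey line joins the timepoint means with bars of 1 SD. Actn1, Actb and Actg1 lie above both 0 h samples in every cultured sample, while the samples of a timepoint spread widely for Vcl, Pxn and Srf.

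Actb, which encodes the β-actin of the cell cortex and stress fibres, had 7170 and 7826 CPM in the 0 h samples M2 and M3. At 3 h M1, M2 and M3 had 9087, 9991 and 11243 CPM, and at 12 h 16291, 15511 and 19248 CPM. At 96 h they had 21858, 21819 and 26564 CPM. Every cultured sample lay above both 0 h samples, and the samples at 96 h lay above all samples of the earlier timepoints. The log2 fold change was 0.43 ± 0.14 (SE) at 3 h with an adjusted p of 0.109 in edgeR's test, 0.87 ± 0.14 at 6 h (adjusted p = 0.000709, a 1.82-fold change that stayed under the fold limit) and 1.18 ± 0.14 at 12 h (adjusted p = 2.79e-05). At 18 h and 24 h the values were 1.00 ± 0.14 and 1.01 ± 0.15, just past the fold limit of 2, and the calls were lost in 15 and 9 of the 27 fits with another setting or a sample left out, where the log2 values were 0.77 to 1.00 and 0.79 to 0.99. With DESeq2 size factors and with DESeq2's test the call at 12 h was lost too (log2 0.95). At 96 h Actb was 3.12-fold higher than at 0 h (log2 1.64 ± 0.15, adjusted p = 2.05e-06).

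Between timepoints in culture Actb was 1.35-fold higher at 6 h than at 3 h (adjusted p = 0.0648) and 1.55-fold higher at 96 h than at 24 h (adjusted p = 0.0258, edgeR), both under the fold limit. The steps from 12 h to 18 h and from 18 h to 24 h had adjusted p-values of 0.706 and 1.00. Actb is often used as a reference gene for quantitative PCR, which presumes a constant level.

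Actg1, the gene of the γ-actin that is found beside β-actin in most cells, had 640 and 589 CPM at 0 h in M2 and M3. At 3 h it had 921, 1712 and 1731 CPM in M1, M2 and M3, and at 96 h 1600, 2119 and 1692 CPM. In contrast to Actb it was called at 3 h (log2 1.24 ± 0.27, adjusted p = 0.0119), and its log2 fold change then stayed between 1.19 and 1.56 at the other timepoints, with adjusted p-values of 0.00112 to 0.00849 in edgeR's test. None of the differences between successive timepoints in culture was called for Actg1 (adjusted p 0.696 to 1.00). Without the 0 h sample M3 the adjusted p at 3 h was 0.116, and with DESeq2 size factors or DESeq2's test the call at 6 h was lost (log2 0.96). The coding sequences of both actins are nearly identical, but these libraries read the 3′ ends of transcripts, and the processed copy Actg-ps1 held 0 to 14 counts per library. How reads that match several places were treated is not given in the sources used here.

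Within a library both actins together took 0.697% and 0.808% of all counts at 0 h. The share in samples at 3 h was 0.900% to 1.17%, in those at 6 h 1.32% to 1.54%, in those at 12 h 1.75% to 2.05% and in those at 18 h 1.79% to 1.88%. It was 1.90% in both 24 h samples and 2.41% to 2.84% in those at 96 h. The share is taken on each library's own total, without the TMM correction for composition. TMM factors were 0.895 and 0.963 at 0 h and 1.12 and 1.13 at 24 h, so by 24 h the share rises more than the TMM-scaled levels. Its ranges did not overlap between 0 h, 3 h, 6 h and 12 h or between 24 h and 96 h. By counts Actb ranked 15th and 9th of all genes in the 0 h samples and first in every sample from 18 h on. The ratio of Actb to Actg1 counts had no steady course, with 11.2 and 13.3 in fresh cells, 5.84 to 9.86 after 3 h and 10.3 to 15.7 after 96 h.

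**Figure D2:**
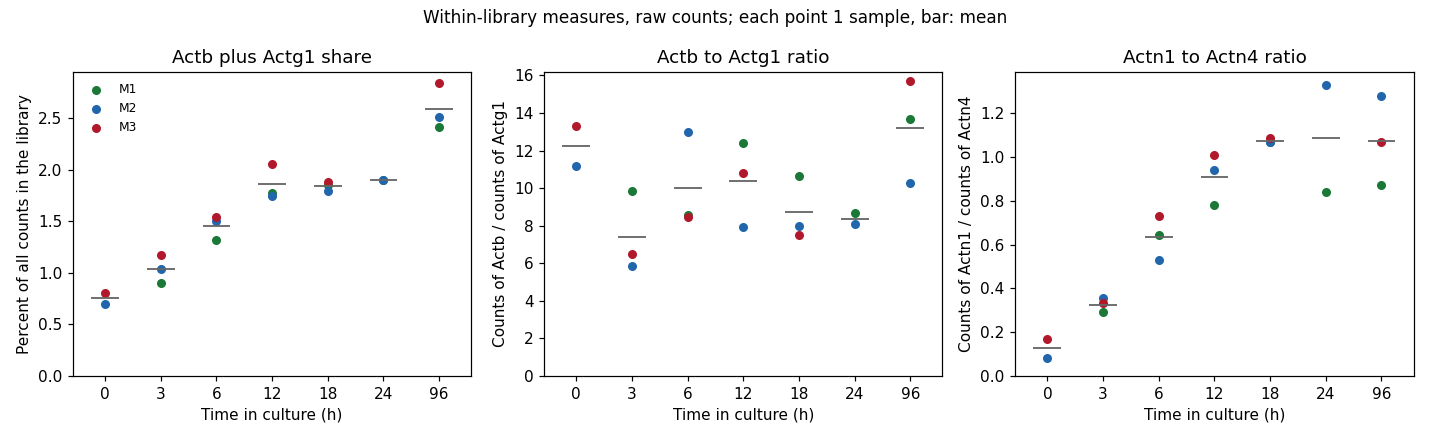
Left, Actb plus Actg1 as a percentage of all counts of a library. Middle, the ratio of Actb to Actg1 counts. Right, the ratio of Actn1 to Actn4 counts. Each point is 1 sample, coloured by number, bars are timepoint means, and time is in hours, evenly spaced. The actin share lies between 0.697% and 0.808% at 0 h and between 2.41% and 2.84% at 96 h, and the Actn1 to Actn4 ratio passes from 0.0838 and 0.168 to between 0.873 and 1.28.

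Of the cross-linkers, Actn1 changed most. This α-actinin bundles the actin filaments of stress fibres and anchors them at focal adhesions. It had 210 and 480 CPM at 0 h in M2 and M3, 548, 736 and 681 CPM at 3 h in M1, M2 and M3, and 1400, 1480 and 1515 CPM at 6 h. At 12 h it had 2383, 3175 and 3292 CPM. The 3 ranges after plating do not overlap with each other or with 0 h. From then on the level stayed in place, with 2264 to 3683 CPM after 18 h, 2572 and 4015 CPM after 24 h and 2930 to 3750 CPM after 96 h.

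Against 0 h the log2 fold change of Actn1 was 0.93 ± 0.30 at 3 h (adjusted p = 0.113), 2.09 ± 0.32 at 6 h (adjusted p = 0.000394) and 3.10 ± 0.33 at 12 h (adjusted p = 8.54e-06, edgeR). It was 3.25 ± 0.34 at 96 h, a 9.54-fold difference (adjusted p = 9.78e-06). Without the 0 h sample M3, the higher of the pair, the change at 3 h was called (log2 1.63, adjusted p = 0.00769). Of all genes 2.5% were called higher at 6 h than at 3 h, and of the 10 genes only Actn1 was (2.24-fold, adjusted p = 0.0214). Without the 3 h sample M1 that adjusted p was 0.125. From 6 h to 12 h Actn1 rose 2.01-fold (adjusted p = 0.0799, edgeR), a call lost in 13 of 27 fits, with log2 values between 0.92 and 1.14 over all of them.

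Actn4, the α-actinin of the cell cortex and of motile cells, took another course. It had 2512 and 2858 CPM at 0 h in M2 and M3, and 1889, 2076 and 2042 CPM at 3 h in M1, M2 and M3. At 12 h it had 3058, 3378 and 3265 CPM, and at 96 h 3356, 2928 and 2981 CPM. All 3 samples at 3 h were below both 0 h samples (of all genes 18% were), and all at 12 h and 96 h were above. None of the differences from 0 h was called: log2 −0.42 ± 0.17 at 3 h (adjusted p = 0.245), 0.27 ± 0.18 at 12 h (0.348) and 0.20 ± 0.18 at 96 h (0.556, edgeR). Over all timepoints together Actn4 differed (adjusted p = 0.0367). The 3′ end of Actn4 overlaps Capn12 on the opposite strand, which had 0 counts in all libraries.

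The ratio of Actn1 to Actn4 counts within a library was 0.0838 and 0.168 in the fresh samples. It lay between 0.290 and 0.355 after 3 h, 0.529 and 0.730 after 6 h, 0.779 and 1.01 after 12 h, and 1.07 and 1.09 after 18 h. The samples at 24 h had 0.843 and 1.33, and those at 96 h 0.873 to 1.28. Up to 18 h the ranges of successive timepoints do not overlap. The ratio is given without a test.

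Flna encodes the large filamin that links actin filaments into networks and binds integrins. It had 526 and 688 CPM at 0 h in M2 and M3, 882, 1167 and 1094 CPM at 3 h in M1, M2 and M3, and 783, 1212 and 985 CPM at 6 h. At 12 h it had 1933, 2274 and 2112 CPM, and at 96 h 1424, 1309 and 1954 CPM. Every cultured sample was above both 0 h samples, and those at 12 h were above all at 3 h and 6 h. The log2 fold change was 0.79 ± 0.27 at 3 h (adjusted p = 0.141) and 0.71 ± 0.27 at 6 h (0.125), then 1.79 ± 0.28 at 12 h, 3.47-fold (adjusted p = 0.000326, edgeR). It was 1.36 ± 0.28 at 96 h (adjusted p = 0.00418).

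Flna and Actn1 were the genes of the group called higher from 6 h to 12 h, 2 of 10 against 0.416% of all genes. For Flna this step was 2.12-fold (adjusted p = 0.0326), and the adjusted p was 0.104 to 0.135 when 1 of the samples 6 h M1, 12 h M2 or 12 h M3 was left out. No gene of the 10 was called in either direction from 12 h to 18 h (0.225% of all genes were), from 18 h to 24 h (0.0396%), from 24 h to 96 h (2.72%) or from 12 h to 96 h (13.5%) by edgeR. At an unadjusted p below 0.05, Tln1 was lower at 18 h than at 12 h, Actb was higher at 96 h than at 24 h and at 12 h, Vcl was lower at 96 h than at 12 h, and no gene passed from 18 h to 24 h. DESeq2 called only Vcl, from 12 h to 96 h.

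**Figure D3:**
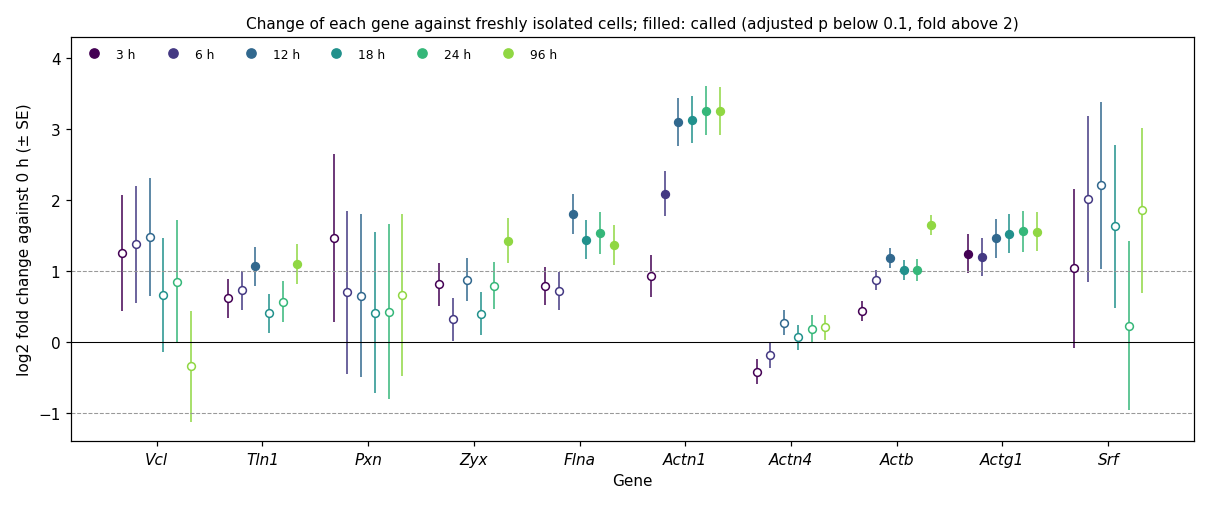
Log2 fold change of each gene against 0 h, with bars of 1 SE, at 3, 6, 12, 18, 24 and 96 h from left to right and dark to light. Filled points were called (adjusted p below 0.1 and fold above 2), and dashed lines mark a 2-fold change. Actn1 reaches 3.25 at 96 h and Actb 1.64, Actn4 stays within −0.42 and 0.27, and the bars of Vcl, Pxn and Srf are wide.

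Among the plaque genes, Tln1 and Zyx rose by 96 h. Tln1 encodes talin-1, which activates integrins and links them to actin. It had 414 and 476 CPM at 0 h in M2 and M3, 1215, 819 and 757 CPM at 12 h in M1, M2 and M3, and 985, 756 and 1114 CPM at 96 h. At 18 h the 3 samples were between 548 and 618 CPM, lower than all at 12 h and all at 96 h. Every cultured sample was above both 0 h samples. Tln1 was called at 12 h (log2 1.06 ± 0.28, adjusted p = 0.0159) and at 96 h (1.10 ± 0.28, adjusted p = 0.0190, edgeR), close to the fold limit. Both calls were lost with DESeq2 size factors, with log2 values of 0.83 and 0.95, and without the 0 h sample M2, with adjusted p-values of 0.155 and 0.205. The call at 12 h was also lost without the sample M1 (log2 0.82), and the call at 96 h without that of M3 (0.97).

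Zyx encodes zyxin, a LIM protein that comes to adhesions and stress fibres under tension. It had 141 and 227 CPM at 0 h in M2 and M3, 306, 351 and 309 CPM at 3 h in M1, M2 and M3, and 179, 303 and 204 CPM at 6 h. At 96 h it had 453, 404 and 623 CPM. The samples at 3 h, 12 h, 24 h and 96 h lay above both 0 h samples, and those at 6 h and 18 h overlapped them. Zyx was called at 96 h (2.68-fold, log2 1.42 ± 0.31, adjusted p = 0.00791). At 12 h its change of 0.88 ± 0.31 had an adjusted p of 0.0722 in edgeR's test and stayed under the fold limit. Without the 0 h sample M2 the adjusted p at 96 h was 0.168, and without that of M3 Zyx was called at 12 h (log2 1.24, adjusted p = 0.0684). On library size alone it was called at 24 h (log2 1.06, adjusted p = 0.0522).

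Vcl encodes vinculin, which strengthens the link between talin and actin under load. It had 122 and 128 CPM at 0 h in M2 and M3. At 3 h it had 186, 151 and 553 CPM in M1, M2 and M3, at 12 h 176, 381 and 484 CPM, and at 96 h 70.8, 23.1 and 200 CPM. All samples at 3 h, 6 h and 12 h were above both 0 h samples, yet they spread widely, and M3 was the highest at each of the 5 cultured timepoints where it was sampled. The log2 fold change was 1.25 ± 0.82 at 3 h (adjusted p = 0.510), 1.47 ± 0.83 at 12 h (0.262) and −0.35 ± 0.79 at 96 h (0.889, edgeR), none of them called. In a fit of 0 h and 12 h alone the change at 12 h was called (log2 1.49, adjusted p = 0.0883).

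From 12 h to 96 h Vcl had a log2 fold change of −1.82 ± 0.73, which edgeR did not call (adjusted p = 0.129) and DESeq2 did, and the samples of both timepoints overlap. The 3′ end of Vcl overlaps that of Ap3m1 on the opposite strand, which had 88.6 to 630 CPM. Whether the counting used the strand is not given in the sources used here, and without it the reads of this pair cannot be told apart.

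Pxn, the gene of the adaptor paxillin that recruits kinases to adhesions, was measured with wide error. It had 89.3 and 21.6 CPM at 0 h in M2 and M3, 169, 177 and 115 CPM at 3 h in M1, M2 and M3, and 69.4, 83.2 and 112 CPM at 96 h. At 18 h M1 and M2 had 88.7 and 133 CPM while M3 had 0 counts, which allows up to 0.604 CPM in that library. The samples at 3 h lay above both at 0 h, and those of all later timepoints overlapped them. Its largest change from 0 h was found at 3 h (log2 1.46 ± 1.18, adjusted p = 0.605, edgeR).

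Srf had the fewest counts of the group. It had 19.6 and 9.54 CPM at 0 h in M2 and M3, which were 78 and 19 counts. At 6 h it had 80.4, 75.8 and 21.9 CPM in M1, M2 and M3, at 12 h 43.3, 79.4 and 79.8 CPM, and at 96 h 48.5, 71.2 and 39.1 CPM. At 24 h M1 had 0 counts (up to 0.729 CPM) and M2 had 34.1 CPM. All samples at 3, 6, 12, 18 and 96 h lay above both at 0 h. The log2 fold change was 2.20 ± 1.18 at 12 h (adjusted p = 0.238) and 1.85 ± 1.16 at 96 h (adjusted p = 0.380, edgeR), so no call was made. Without the 24 h sample M1, the changes at 6 h, 12 h and 96 h were called with adjusted p-values of 0.0662, 0.0318 and 0.0934, and without that of M2 with 0.0703, 0.0338 and 0.0976, at nearly the same fold changes. In fits of the 2 groups alone Srf was called at 12 h (adjusted p = 0.0543) and 96 h (0.0856).

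Counted over the group, every sample of the timepoint lay above both 0 h samples for 9 of 10 genes at 3 h, where 17.1% of all genes did. After 6 h this held for 7 genes (17.7% of all genes), after 12 h for 9 (20.3%), after 18 h for 6 (19.1%), after 24 h for 7 (26.1%) and after 96 h for 8 (22.2%). Each cultured sample was also compared with the 0 h sample of its own isolation date. Tln1, Flna, Actn1, Actb and Actg1 were higher in all 11 cultured samples of the date of M1 and M3 and in all 6 of the date of M2. The log2 difference was 0.22 to 1.76 on the first date and 0.48 to 1.61 on the second for Actb, and 0.19 to 2.78 and 1.81 to 4.25 for Actn1. Srf was higher in 10 of 11 and 6 of 6 samples, Zyx in 8 of 11 and 6 of 6, and Actn4 in 5 of 11 and 5 of 6. Vcl was higher in 8 of 11 and 5 of 6, and Pxn in 10 of 11 and 4 of 6. Each date has 1 sample at 0 h, so nothing was tested within a date.

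SRF binds CArG boxes, and the promoters of the group were searched for them. The searched windows were the 250 bases before the start of each gene in RefSeq on GRCm38.p6, and 8 of the 10 genes had one (not Actb and Pxn). The RefSeq start lay 0 to 198 bases from the Ensembl gene start for 7 of them. For Flna it lay 3286 bases inside the Ensembl gene, so its window does not describe the promoter at that start and is not read here. A CArG box was found in the windows of 3 of the other 7 genes, Vcl, Actg1 and Srf, against 1.47% of the 32851 promoters of the table. They are shown because the group holds both SRF and genes that it is known to drive. Each is written 5′ to 3′ along the gene's strand, with the CArG box in capitals.
Vcl, chr14:20929148-20929205, plus strand: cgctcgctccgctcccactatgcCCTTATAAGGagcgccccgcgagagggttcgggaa
Actg1, chr11:120348551-120348610, minus strand: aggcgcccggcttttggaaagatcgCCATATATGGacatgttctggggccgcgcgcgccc
Srf, chr17:46556190-46556269, minus strand: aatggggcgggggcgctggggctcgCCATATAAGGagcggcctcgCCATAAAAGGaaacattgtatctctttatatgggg

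Counted from the RefSeq starts, the box began 227 bases before that of Vcl and 90 before that of Actg1, and Srf held a pair, 82 and 62 bases before its start. Of the 3 genes with a box, Actg1 was called at every timepoint and Vcl and Srf at none, and Actn1, Tln1 and Zyx, which were called, had none in these windows. The letters CATTCC, the core bound by TEAD factors, were searched on both strands and found in the windows of Vcl and Actn4, against 12.6% of all promoters. The search used promoter windows alone, so a box in an intron or farther upstream would not be seen, and a match is not evidence of binding.

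The genes lie on 10 different chromosome regions. Actb is at chr5:142903115-142906754 and Actg1 at chr11:120345690-120348542, Actn1 at chr12:80167547-80260371, Flna at chrX:74223461-74249820, Tln1 at chr4:43531519-43562691 and Actn4 at chr7:28893248-28962340, all on the minus strand. Srf is at chr17:46548329-46556175 on the minus strand, and Vcl (chr14:20929398-21033676), Pxn (chr5:115506676-115555987) and Zyx (chr6:42349630-42360213) are on the plus strand of GRCm38.

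The genes whose log2 levels over the 19 samples lay nearest to those of a member, after centring, were sought among genes that averaged 50 CPM or more. Nearest to Actb were Ptdss1, a phosphatidylserine synthase (root mean square difference 0.195 on the log2 scale), Gm10177 (0.201) and Myl12a, a myosin light chain (0.228). Nearest to Actn1 were Tagln, which encodes the actin-binding transgelin (0.386), the tropomyosin gene Tpm4 (0.426) and Lrrc59 (0.442). Nearest to Actg1 was Vim, the vimentin gene (0.291), followed by Rps3a2 and Samd4b (0.301 each). For Vcl the nearest gene, Klf7, was at 0.655, and for Srf the nearest, Vegfa, at 1.26, so no gene searched followed either of them closely. Srf itself averaged under the limit of 50 CPM, so genes at its level were not searched. Its 24 h sample M1 had 0 counts, which can widen its distances. None of the 3 genes nearest to each member was another gene of the group.

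A set of 3 wider lists and 2 short ones place the group among its partners, and like the group they were chosen with earlier results of these data known. Together the 5 lists hold 126 genes, of which 116 were tested. At 12 h 24 of them were called higher and 14 lower, and at 96 h 29 were higher and 11 lower, in edgeR's test. Of all genes 9.1% were called lower at 12 h and 5.03% at 96 h, beside the 8.6% and 5.83% called higher.

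The list of other focal adhesion plaque genes (43 of 47 tested) had 14 genes higher and 6 lower at 12 h and 9 higher and 5 lower at 96 h, where its median log2 change was 0.74. Tes, the gene of the zyxin partner testin, had 10.4 ± 3.4 CPM in fresh cells (SD, n = 2), 170 ± 40 at 12 h and 178 ± 62 at 96 h (n = 3 each), and it rose by 4.08 ± 0.52 on the log2 scale up to 96 h (adjusted p = 6.88e-05). Lims2, which encodes the integrin-linked adaptor PINCH2, had 1.13 ± 1.6 CPM at 0 h and 93.4 ± 43 at 96 h. Fhl2, a LIM-domain cofactor found at adhesions and in the nucleus, had 0 counts in both 0 h samples and 195 ± 73 CPM after 96 h in culture, at least 129-fold higher than 3 counts in the shallower 0 h library. In the other direction Tln2, the second talin, fell from 369 ± 33 CPM to 45.1 ± 8.6 at 12 h (log2 −3.03 ± 0.29, adjusted p = 2.33e-06, edgeR), while Tln1 rose. The tensin gene Tns2 fell from 169 ± 15 CPM to 46.4 ± 9.7 at 12 h, and Kank2, a talin-binding gene of the adhesion belt, from 479 ± 13 to 67.7 ± 26.

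Of the genes for actin filament assembly and turnover (39 of 40 tested), 3 were higher and 5 lower at 12 h and 10 higher and 4 lower at 96 h. Actr3, a subunit of the Arp2/3 complex that starts branched filaments, had 95.1 ± 0.98 CPM at 0 h (SD, n = 2), 944 ± 131 at 12 h and 375 ± 26 at 96 h. Its log2 fold change at 12 h was 3.31 ± 0.23 (adjusted p = 1.62e-07, edgeR). No other Arp2/3 subunit of the list was called higher at 12 h. The genes of the filament-disassembling factors Cfl2 and Wdr1 were called higher at 96 h, with log2 fold changes of 2.40 ± 0.38 and 2.04 ± 0.32, and the formin gene Diaph1 was just called at 12 h (1.12 ± 0.43, adjusted p = 0.0979, edgeR). Gsn, the gene of the severing protein gelsolin, went from 380 ± 72 CPM at 0 h to 12.2 ± 2.7 at 24 h and 112 ± 35 at 96 h, and was lower at both. Svil and Eps8, a membrane-linked and a capping factor, were lower at 12 h (log2 −2.23 ± 0.40 and −4.38 ± 0.79). Ssh1, the phosphatase that activates cofilin, was higher at 3 h (397 ± 25 CPM against 133 ± 1.2) and lower at 96 h (45.2 ± 12).

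**Figure D4:**
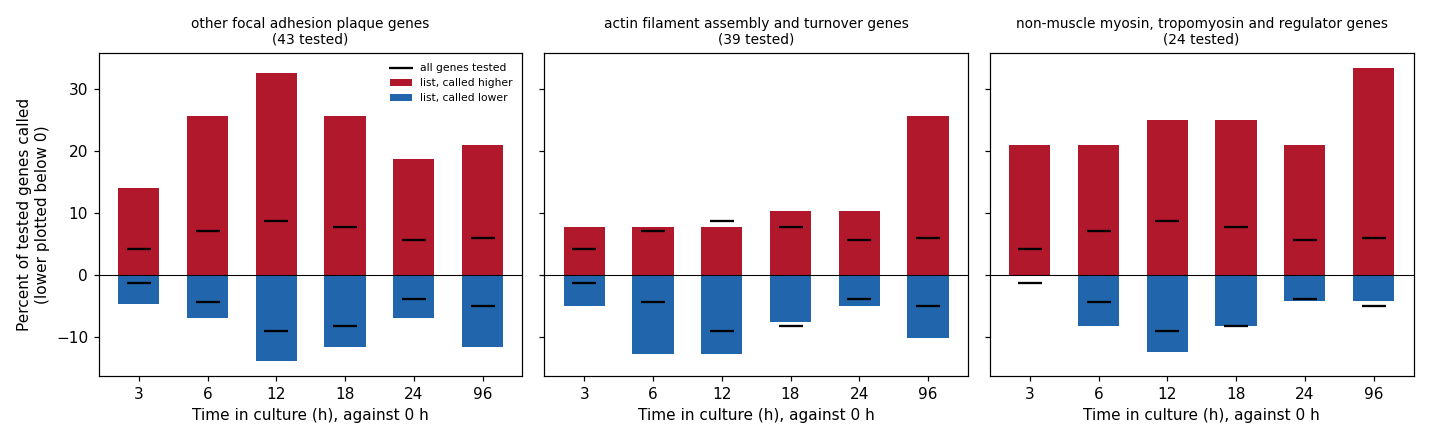
Percentage of the tested genes of 3 lists that were called higher (red, above 0) or lower (blue, plotted below 0) at each timepoint against 0 h, with black dashes for the percentage of all genes tested. Of the other plaque genes 14 of 43 were higher at 12 h, and of the actin turnover genes 3 of 39 at 12 h and 10 of 39 at 96 h.

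All 24 genes of the list of non-muscle myosins, tropomyosins and their regulators were tested, and 6 were higher and 3 lower at 12 h, 8 higher and 1 lower at 96 h. Tropomyosins wrap actin filaments and set which myosin binds them. Tpm4 had 191 ± 39 CPM at 0 h (SD, n = 2), 1352 ± 122 at 12 h and 885 ± 133 at 96 h, with a log2 fold change of 2.82 ± 0.20 at 12 h (adjusted p = 1.62e-07). Tpm1 had 285 ± 105 CPM at 0 h, 996 ± 161 at 3 h and 2297 ± 228 at 96 h (log2 3.01 ± 0.24 at 96 h, adjusted p = 7.43e-07, edgeR). Tpm2 moved both ways, from 53.8 ± 28 CPM at 0 h to 20.2 ± 1.7 at 12 h and 244 ± 60 at 96 h, and both changes were called.

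The myosin heavy chain gene Myh10 was lower at 12 h (log2 −1.89 ± 0.48). Myl12b was also called lower at 12 h, but it shares a near-identical sequence with Myl12a, and the split of reads between the pair is uncertain.

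**Figure D5:**
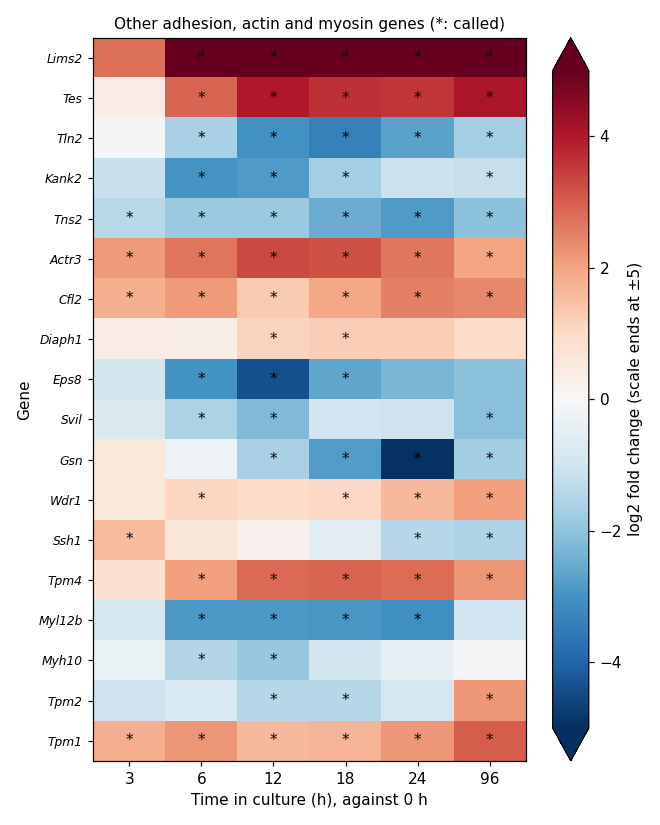
Log2 fold change against 0 h of the other adhesion, actin and myosin genes named in the text, at each timepoint (colour, scale ends at ±5; stars mark calls). Fhl2, with no counts at 0 h, is left out. Tes, Actr3, Tpm4 and Tpm1 are red across the cultured timepoints, Tln2 and Tns2 are blue from 6 h on, and Tpm2 turns from blue to red at 96 h.

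Of the 7 SRF cofactor genes 6 were tested, and Myocd had 0 counts throughout. None was called at 3 to 24 h. At 96 h Elk4, a ternary complex factor, was lower (54.0 ± 4.5 CPM against 127 ± 38 at 0 h, log2 −1.23 ± 0.32, adjusted p = 0.0240, edgeR). Mrtfa had 7.02 ± 9.9 CPM at 0 h and 71.1 ± 20 at 96 h, a difference with an adjusted p of 0.570. The lowest adjusted p over the 6 timepoints was 0.716 for Mrtfb, 0.401 for Elk1, 0.245 for Elk3 and 0.603 for Scai, a nuclear inhibitor of MRTF (edgeR).

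Of the 9 paralogues of the group 5 were tested. Acta2, which encodes the smooth muscle actin of activated HSCs, had 94.6 ± 61 CPM at 0 h (SD, n = 2), 93.1 ± 22 at 12 h and 3169 ± 856 at 96 h (n = 3 each), and was called at 96 h alone (log2 5.07 ± 0.53, adjusted p = 1.11e-05). Actb and Actg1 were already called at 12 h, and the difference in timing between the actin genes was not tested. Flnc had 0 counts at 0 h and 24.7 ± 10.0 CPM after 96 h in culture, at least 16.4-fold higher than 3 counts in the shallower fresh library, but its lowest adjusted p was 0.103 (edgeR). Actg2, the other smooth muscle actin, had 0 to 24.1 CPM and no call. Actn2, Actn3, Actc1 and Acta1 did not pass the filter on low counts.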

How the data were processed

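HSCs were profiled with QuantSeq 3′ mRNA libraries, which yield reads from transcript 3′ ends, so levels were not divided by gene length. The authors deposited a matrix of raw, not normalized counts. Single-end reads had been trimmed, aligned by STAR to GRCm38.p6 and passed through StringTie. The counting tool is not given in the sources used here. In R 4.3.3, edgeR 4.0.16 filtered genes with filterByExpr (minimum count 10), scaled 19 samples by TMM and tested each timepoint against 0 h, and successive timepoints, with the quasi-likelihood F test in 1 fit without covariates. Standard errors are the log2 fold change divided by the square root of F. The step was tested on simulated data.

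The 10 genes, the partner lists and the marker lists were chosen with earlier results of these data known. From the 3 wider lists, the 3 genes called with the largest change in each direction at 12 h and at 96 h, with a mean of at least 10 CPM, were named, apart from some that are not reported here. In the cofactor and paralogue lists the same rule was used. The nearest genes of Actn1 and the values at other timepoints were chosen after their values were seen.

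Alternatives were library size or DESeq2 size factors, the DESeq2 1.42.0 Wald test, no filter, the labels' number as a block, isolation date, only 2 groups, adjusted p below 0.05, and each sample left out. Plots used Python 3.11.15 and matplotlib 3.10.9.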

Additional observations from a re-analysis of the deposited data

How the results depend on the processing

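The tally covers 66 values, 10 genes at 6 timepoints against 0 h and 6 single steps in culture of Actn1, Actb or Flna. The other steps in culture, among them that of Vcl from 12 h to 96 h, were not included. Of the 66 values 25 were called. All 25 kept their sign in the 27 fits and 14 kept their call in every fit. The number of genes called was 2 at 3 h with the replicate block (Actn1 added), 1 at 6 h and 3 at 12 h with DESeq2 size factors and with DESeq2's test, and 1 from 6 h to 12 h with no filter, with the replicate block and at an adjusted p below 0.05. With DESeq2 size factors and with DESeq2's test it was also 3 at 18 h, 3 at 24 h and 5 at 96 h. Each of these counts was lower than in the main fit. From 12 h to 96 h the number was 1 with DESeq2's test and 1 with the replicate block. The Actb call was also lost at 18 h and 24 h with no filter and in fits of the 2 groups alone. At 18 h it was lost with the isolation date too. Fits of the 2 groups alone added Vcl at 12 h and Srf at 12 h and 96 h, and library size alone added Zyx at 24 h. The cause was not tested. The labels do not say what the numbers M1 to M3 mark, so they were not taken to pair samples. Deviations from the timepoint means correlated at 0.014 on average between samples of the same number (51 pairs, highest 0.082). Between others the average was −0.007 (103 pairs), and 13 of 19 samples correlated best with their own number. These values do not settle whether the numbers pair samples. A pairing, if real, is not used in the main fit and is used with the replicate block. The number of genes called also moved with the samples used. Against 0 h, leaving out 1 sample moved it both below and above the main fit at 12 h, 24 h and 96 h. It moved only below at 18 h, only above at 6 h, and not at 3 h. With 1 sample left out it was 0 to 1 from 3 h to 6 h, 0 to 2 from 6 h to 12 h, and 0 to 1 from 18 h to 24 h, 24 h to 96 h and 12 h to 96 h. Of the 116 partner genes tested, the main fit had 4 lower at 3 h, and 6 lower and 18 higher at 24 h. Of all 15138 genes it had 210 lower at 3 h, and 584 lower and 856 higher at 24 h. With DESeq2's test 7 partner genes were lower at 3 h and 15 at 24 h, beside 561 and 1166 of all genes. On library size alone 28 partner genes were higher at 24 h, beside 1249 of all genes.

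Uncalled values changed sign as follows. Actn4 was −0.18 at 18 h and −0.040 at 24 h with DESeq2 size factors and with DESeq2's test. Srf at 24 h was −0.018 with both, −0.12 with the replicate block and −0.16 with the isolation date. With 1 sample left out, Srf at 24 h was −9.11 to 1.22, the lowest where the 24 h sample with 0 counts stood alone, a fit that called it lower (adjusted p = 0.00208, edgeR) and assumes that a lone sample varies like the other groups. In such fits Actn4 at 18 h was −0.16 to 0.23, Vcl at 24 h −0.11 to 1.42 and at 96 h −1.42 to 0.12. Pxn was −0.011 to 2.06 at 6 h, −0.048 to 2.02 at 12 h, −0.39 to 1.70 at 18 h, −0.25 to 1.77 at 24 h and −0.018 to 2.03 at 96 h, negative without the 0 h sample M3 and, at 18 h, also without the 18 h sample M2 (the lowest value). Library size alone moved the median of all genes by 0.24 at 24 h and 0.15 at 96 h, and DESeq2 size factors by −0.13 at 6 h and 12 h (log2).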
